A study of Mus musculus with 8 samples.

Results

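The genes described here carry Klotho, vitamin D and phosphate handling in the kidney: Kl, Fgfr1, Cyp27b1, Cyp24a1, Vdr, Pth1r, Slc34a1, Slc34a3, Slc20a1 and Slc20a2. They were taken by name from the table of gene levels, where 10 of the 55919 genes carry these names, and each was measured in all 8 libraries. Whole kidney RNA of female mice of the mixed strain C57BL/6 x 129S4/SvJae was sequenced as poly-A mRNA. There were 4 groups with 2 libraries each. The WT-NI group held non-injured kidneys of wildtype mice, and the KO-NI group held non-injured kidneys of Tet1 knockout (Tet1 KO) mice, which lack Tet1 in the whole body (allele Tet1tm1.1Jae). The WT-I/R 3D group and the KO-I/R 3D group held the left kidneys of wildtype and Tet1 KO mice 3 days after their vessels had been clamped for 45 min and then released (ischemia and reperfusion, I/R). Each library was a pool of RNA from 3 mice, so the spread between the libraries of a group is a spread between pools. The origin of the non-injured kidneys, whether from separate mice or from the unclamped side, and the age of the sequenced mice are not stated.

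Klotho, the product of Kl, is a membrane protein made mainly in kidney tubules, and with the receptor Fgfr1 it binds FGF23, a hormone released by bone that makes the kidney excrete phosphate. FGF23 lowers the enzyme that activates vitamin D (Cyp27b1) and raises the enzyme that breaks it down (Cyp24a1), while parathyroid hormone, acting on Pth1r, raises Cyp27b1. Both hormones remove the sodium-phosphate cotransporters Slc34a1 and Slc34a3 from the brush border of the proximal tubule, where most filtered phosphate is taken back, whereas Slc20a1 and Slc20a2 belong to another family and are made in most tissues.

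The knocked-out gene encodes an enzyme that oxidizes methylated cytosine, mostly where C is followed by G. Kl was the member that fell most, the tubular cotransporters also fell, and Slc20a1 was called higher with injury in Tet1 KO kidneys only. The difference between the injury responses of Slc20a1 in the 2 genotypes did not pass, as given below. The start regions of these genes are therefore shown with every CG pair in capitals. They are the reference sequences of RefSeq for the mouse assembly GRCm38.p6, from 250 bases before to 50 bases after the annotated start, 5′ to 3′ on the strand of the gene. The Kl region lies at chr5:150952357-150952656 on the plus strand, the Slc34a1 region at chr13:55399398-55399697 on the plus strand, the Slc34a3 region at chr2:25234185-25234484 on the minus strand and the Slc20a1 region at chr2:129198523-129198822 on the plus strand.
Kl: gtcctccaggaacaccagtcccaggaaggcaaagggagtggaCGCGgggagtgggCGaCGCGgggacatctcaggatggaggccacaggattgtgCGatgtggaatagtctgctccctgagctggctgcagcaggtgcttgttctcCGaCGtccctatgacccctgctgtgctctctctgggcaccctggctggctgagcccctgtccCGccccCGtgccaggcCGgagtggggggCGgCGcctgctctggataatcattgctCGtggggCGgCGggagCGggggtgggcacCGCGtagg
Slc34a1: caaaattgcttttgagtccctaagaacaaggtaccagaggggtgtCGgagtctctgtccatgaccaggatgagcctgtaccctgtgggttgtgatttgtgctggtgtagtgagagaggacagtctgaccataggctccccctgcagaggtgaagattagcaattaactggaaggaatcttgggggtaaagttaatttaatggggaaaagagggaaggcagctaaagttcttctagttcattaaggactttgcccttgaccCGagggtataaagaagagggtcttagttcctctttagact
Slc34a3: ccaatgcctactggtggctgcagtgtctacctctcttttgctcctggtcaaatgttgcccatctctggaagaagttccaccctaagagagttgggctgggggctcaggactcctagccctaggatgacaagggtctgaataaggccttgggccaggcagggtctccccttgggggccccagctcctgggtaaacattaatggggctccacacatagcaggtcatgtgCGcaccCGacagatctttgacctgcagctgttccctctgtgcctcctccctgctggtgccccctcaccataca
Slc20a1: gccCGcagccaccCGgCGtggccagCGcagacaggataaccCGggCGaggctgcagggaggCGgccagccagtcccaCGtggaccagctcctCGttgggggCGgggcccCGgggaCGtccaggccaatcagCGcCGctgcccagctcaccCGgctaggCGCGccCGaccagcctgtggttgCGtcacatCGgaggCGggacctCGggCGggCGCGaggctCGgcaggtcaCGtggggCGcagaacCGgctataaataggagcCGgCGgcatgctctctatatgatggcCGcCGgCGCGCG
The Kl region held 19 CG pairs, more than 71.9% of the 32851 promoters in the table. The Slc20a1 region held 36, more than 93.8% of them, and a second annotated Slc20a1 start held 6. The regions of Slc34a1 and Slc34a3 held 2 each, against a median of 7 over all promoters. Methylation was not measured in these libraries, so the letters are a description of the regions only.

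The same regions were searched on both strands for the half-site of the vitamin D receptor spelled as AGGTCA or AGTTCA, or as GGGTCA or GGTTCA. Half-sites were counted singly, without regard to their pairing. At least 1 was found in 43.7% of all promoters of this length, and the share with 2 or more was not counted. Slc34a1 and Slc34a3 held 2 each, and Kl and the first Slc20a1 start held 1 each. Of the others, Vdr had 15 CG pairs and 1 half-site, Cyp27b1 had 2 and 1, and the 3 annotated starts of Pth1r had 27, 23 and 5 CG pairs and no half-site. Regions were matched for 7 of the 10 members, and those of Cyp24a1, Fgfr1 and Slc20a2 were not analysed here.

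Levels are given as FPKM, the reads of a gene scaled to its length and to the library, which allows levels to be compared between genes. In the deposited values the library scaling followed size factors from the median of ratios over genes, and not the total reads. These factors ran from 0.725 in KO-NI replicate 1 to 1.34 in KO-I/R 3D replicate 2. Such scaling sets the typical gene as unchanged between libraries. The libraries held 13961281 to 18480858 reads, with 4.76% to 10.9% of them on mitochondrial genes. KO-NI replicate 1 stood apart with the highest mitochondrial share, against 7.49% in KO-NI replicate 2. Tet1 itself was measured over the whole gene at 51 to 96 reads a library and was 0.378 and 0.323 FPKM in WT-NI but 0.551 and 0.382 in the libraries labelled KO-NI. After injury the WT libraries stood at 0.243 and 0.313 and those labelled KO at 0.189 and 0.158. A whole-gene value does not check the deleted part. The 15 proximal tubule markers summed to 6474 FPKM in WT-NI replicate 1, while the parathyroid gene Gcm2 was at 0 in every library. A difference was called when the limma test, adjusted over the 15650 genes tested, gave an adjusted p under 0.05 and a log2 fold change beyond 0.5 in size. All 10 members passed the filter on low levels.

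In non-injured WT kidneys the levels covered a wide range. Slc34a1 was highest at 1503 ± 49.9 FPKM (SD, n = 2), followed by Pth1r at 258 ± 8.23 and Kl at 134 ± 1.6. Slc34a3 at 59.2 ± 3.21 and Vdr at 57.3 ± 4.55 did not differ beyond their spread, and Cyp24a1 followed at 40.3 ± 18.4. At the low end Slc20a2 at 11.3 ± 0.371, Fgfr1 at 10.2 ± 0.111 and Slc20a1 at 8.39 ± 0.224 were all within the range of Cyp27b1, whose libraries stood at 7.0 and 13.3 FPKM. The depth behind these values was 28118 to 100786 reads a library for Slc34a1 and 259 to 543 for Cyp27b1, the least covered member.

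**Figure D1:**
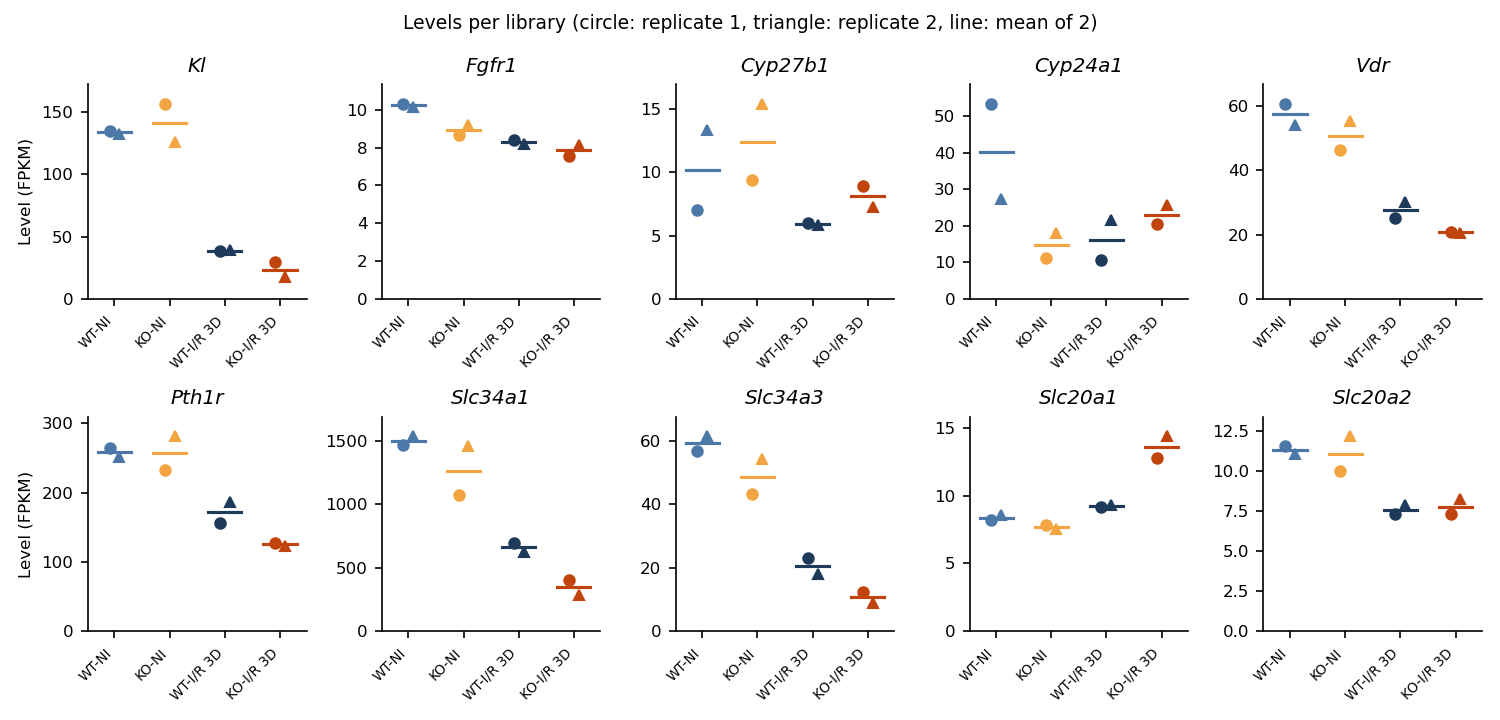
Levels of the 10 genes in FPKM (vertical axes, from 0) in the 2 libraries of each group (horizontal axes), with replicate 1 as a circle, replicate 2 as a triangle and the mean as a line. Kl, Vdr, Pth1r, Slc34a1 and Slc34a3 are lowest in KO-I/R 3D, and Slc20a1 is highest there.

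Injury went with lower levels of most of these genes in WT kidneys: 6 of the 10 members were called lower and 0 higher, where 8.45% of all genes tested were called lower and 8.90% higher. The members called were Kl, Vdr, Slc34a1, Slc34a3, Slc20a2 and Pth1r, and the median log2 fold change over the 10 members was -0.87, against -0.01 over all genes. In Tet1 KO kidneys 6 members were called lower and 1, Slc20a1, higher, against a background of 19.4% lower and 17.9% higher. The median was -0.80, against -0.01 over all genes. These comparisons ask how the phosphate and vitamin D genes stand at the acute stage of injury in each genotype. In whole kidney RNA, fewer cells of a type and less RNA per cell cannot be told apart.

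The number of calls in WT kidneys changed when a library of either group was left out. None was made without WT-NI replicate 1, Vdr alone was called without WT-NI replicate 2 or without WT-I/R 3D replicate 2, and Kl, Vdr and Slc34a3 were called without WT-I/R 3D replicate 1. In these fits the lone library is assumed to vary like the other groups, and the direction of the fold change of every member was kept. The log2 fold change of Kl ran from -1.80 to -1.78 in the 4 fits and that of Slc34a1 from -1.26 to -1.11 (adjusted p = 0.0488 to 0.0632 and 0.0755 to 0.115 by limma), and the genes called lower over the whole table fell in number from 1322 to between 76 and 231. With no filter on low levels Kl, Vdr and Slc34a3 were called, and on the TPM scale, on which the median over all genes was 0.17 in WT and 0.38 in Tet1 KO kidneys, the changes of Slc20a2 and Pth1r in WT were -0.39 and -0.41 and were no longer called. In Tet1 KO kidneys the calls of Kl, Vdr, Slc34a1, Slc34a3, Slc20a1 and Pth1r were kept in every alternative tried, including the fit without KO-NI replicate 1.

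**Figure D2:**
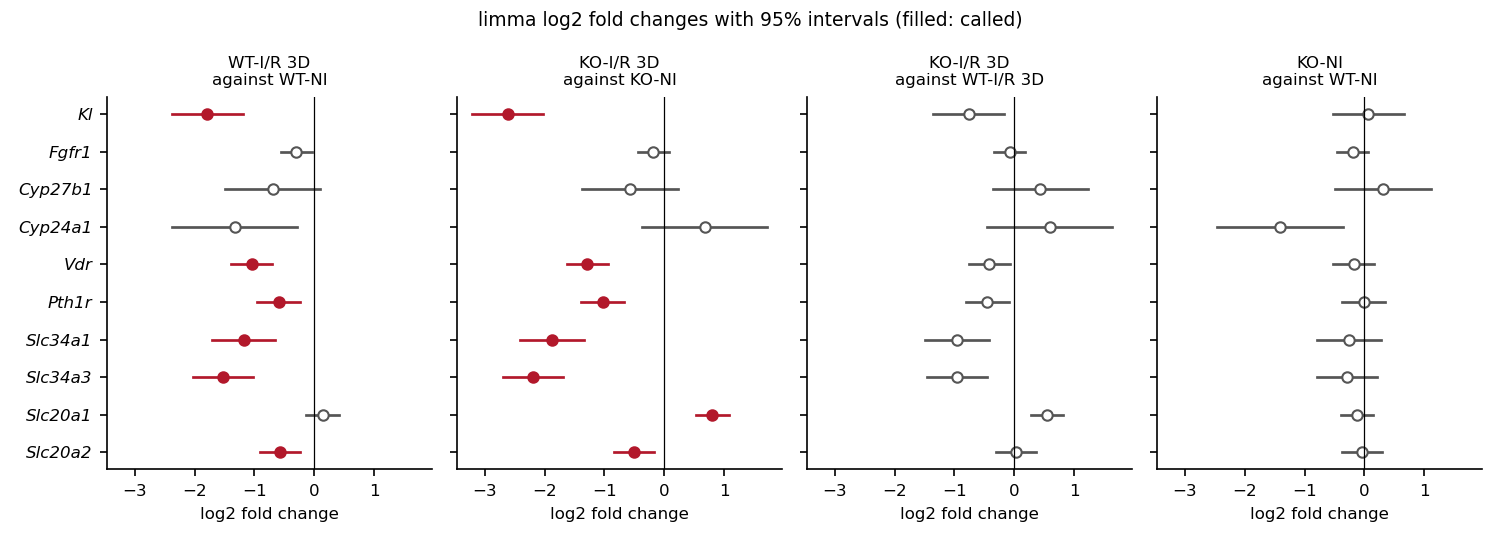
Log2 fold changes from limma (horizontal axes) of the 10 genes in 4 comparisons, with bars for the 95% interval and filled points for called differences. Kl lies lowest in both injury comparisons, at -1.79 in WT and -2.62 in Tet1 KO kidneys, and no point is filled in the comparisons between genotypes.

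Kl (ENSMUSG00000058488, chromosome 5), the co-receptor for FGF23, stood at 134.77 and 132.5 FPKM in WT-NI, 156.21 and 125.98 in KO-NI, 38.5 and 38.8 in WT-I/R 3D, and 30.0 and 17.2 in KO-I/R 3D. All 4 injured libraries lay far below all 4 non-injured ones, and the KO-I/R 3D pair lay under the WT-I/R 3D pair. Against the WT-NI mean, 28.8% and 29.1% of the Kl level was left in WT-I/R 3D, and 22.4% and 12.9% in KO-I/R 3D. The log2 fold change with injury was -1.79 in WT (SE 0.25, 95% interval -2.38 to -1.19, adjusted p = 0.00707 by limma) and -2.62 in Tet1 KO kidneys (SE 0.25, adjusted p = 0.000643). Between the injured groups it was -0.76 (95% interval -1.36 to -0.17), with an adjusted p of 0.207 that did not pass.

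Fgfr1 (ENSMUSG00000031565, chromosome 8), the FGF receptor that Klotho turns into a receptor for FGF23, varied far less. It stood at 10.3 and 10.1 FPKM in WT-NI, 8.66 and 9.19 in KO-NI, 8.38 and 8.20 in WT-I/R 3D, and 7.57 and 8.12 in KO-I/R 3D. The WT-NI libraries were the highest and did not overlap with any other group. The fold change with injury was -0.30 on the log2 scale in WT (adjusted p = 0.106 by limma) and -0.18 in Tet1 KO kidneys (adjusted p = 0.222), and the latter turned to 0.22 when levels were expressed as TPM. Since Kl fell and Fgfr1 moved little, the ratio of Kl to Fgfr1 was 13.1 in both WT-NI libraries, 18.1 and 13.7 in KO-NI, 4.59 and 4.74 in WT-I/R 3D, and 3.96 and 2.12 in KO-I/R 3D.

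Among the other genes of FGF23 and Klotho signalling, 7 of 9 listed could be tested. None was called in WT and 3 were called lower in Tet1 KO kidneys, where 8.45% and 19.4% of all genes were called lower. Fgf23 itself was at most 0.053 FPKM in any library, and Klb, the co-receptor for other endocrine FGFs, at most 0.0633. Fgfr4, another receptor that pairs with Klotho, had a log2 fold change of -0.47 in WT (adjusted p = 0.0483 by limma), which was under the fold needed for a call, and of -0.51 in Tet1 KO kidneys (adjusted p = 0.0206), which was called. Adam10, a protease that sheds Klotho from the cell surface, had log2 fold changes of 0.09 and 0.21 (adjusted p = 0.708 and 0.317).

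Of the vitamin D genes, Vdr (ENSMUSG00000022479, chromosome 15), the nuclear receptor for active vitamin D, acts in pairs with Rxra on the DNA of its target genes. It was 60.5 and 54.1 FPKM in WT-NI, 46.3 and 55.1 in KO-NI, 25.3 and 30.2 in WT-I/R 3D, and 20.7 and 20.6 in KO-I/R 3D. The non-injured groups overlapped with each other, and the injured groups lay below them with KO-I/R 3D below WT-I/R 3D. Vdr fell by 1.05 on the log2 scale in WT (SE 0.144, adjusted p = 0.00669 by limma) and fell by 1.29 in Tet1 KO kidneys (SE 0.144, adjusted p = 0.000984). The difference between the injured groups was -0.42 (95% interval -0.76 to -0.08, adjusted p = 0.22).

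Cyp24a1 (ENSMUSG00000038567, chromosome 2), which breaks down active vitamin D and is itself a target of Vdr, differed widely between the WT-NI libraries. It was 53.4 and 27.3 FPKM in WT-NI, 11.3 and 18.1 in KO-NI, 10.6 and 21.7 in WT-I/R 3D, and 20.4 and 25.7 in KO-I/R 3D. The WT-NI libraries were the highest, and the other groups lay closer to each other, with WT-I/R 3D overlapping both KO groups. Both injured libraries were below both non-injured ones in WT and above them in Tet1 KO kidneys. The log2 fold change with injury was -1.33 in WT (SE 0.44, adjusted p = 0.0821 by limma) and 0.67 in Tet1 KO kidneys (SE 0.44, adjusted p = 0.262), neither of which was called. With voom on the recovered reads the WT change passed, at an adjusted p of 0.0293, and over the alternatives that p ran up to 0.364.

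The difference between these responses of Cyp24a1 was 2.00 on the log2 scale (95% interval 0.52 to 3.48). It had an unadjusted p of 0.0153 and an adjusted p of 0.411 by limma over all genes, so that it did not pass. Between the non-injured groups Cyp24a1 was -1.41 (95% interval -2.46 to -0.36, unadjusted p = 0.0156, adjusted p = 0.688). Cyp24a1 overlaps Pfdn4 on the opposite strand, which was at 2.44 to 7.12 FPKM, and whether the counting used strand is not stated.

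Cyp27b1 (ENSMUSG00000006724, chromosome 10), which makes active vitamin D in the proximal tubule, was low and spread widely in non-injured kidneys. It was 7.0 and 13.3 FPKM in WT-NI, 9.40 and 15.4 in KO-NI, 6.00 and 5.84 in WT-I/R 3D, and 8.89 and 7.28 in KO-I/R 3D. The WT-I/R 3D libraries were the lowest of all, and the KO-I/R 3D libraries overlapped those of WT-NI. Neither change with injury was called, with log2 fold changes of -0.70 in WT (SE 0.337, adjusted p = 0.199 by limma) and -0.57 in Tet1 KO kidneys (SE 0.337, adjusted p = 0.214). In WT-NI the library with more Cyp24a1 had less Cyp27b1, whereas in KO-NI replicate 2 had more of both. The ratio of Cyp24a1 to Cyp27b1 was 7.63 and 2.06 in WT-NI and 1.21 and 1.18 in KO-NI. It was 1.76 and 3.71 in WT-I/R 3D and 2.29 and 3.53 in KO-I/R 3D.

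**Figure D3:**
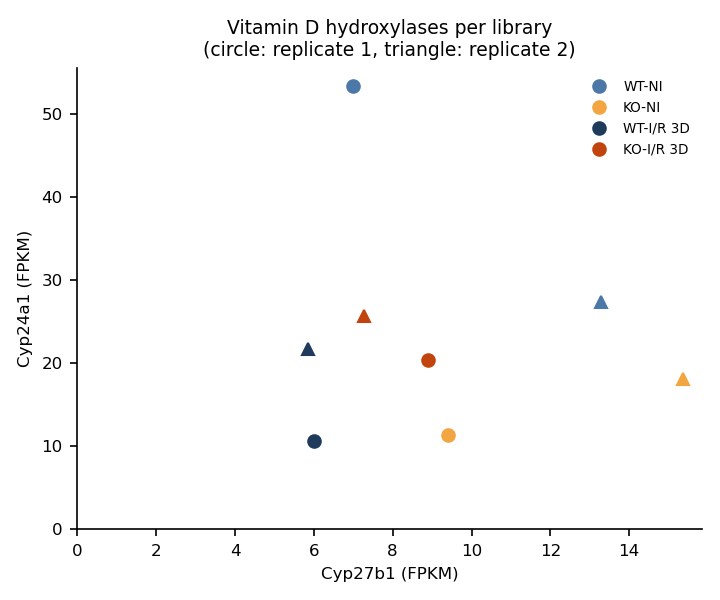
Level of Cyp24a1 (vertical axis, FPKM) against Cyp27b1 (horizontal axis, FPKM) in each of the 8 libraries, coloured by group, with replicate 1 as a circle and replicate 2 as a triangle. The WT-NI libraries lie apart from each other, at 53.4 and 27.3 FPKM of Cyp24a1, and above the other 6 libraries.

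Of the other vitamin D genes, 9 of 10 listed were tested, and 3 were called lower in WT and 4 in Tet1 KO kidneys, with none higher. Over all genes 8.45% and 19.4% were called lower. Rxra, the partner of Vdr on DNA, fell by 0.80 on the log2 scale in WT (adjusted p = 0.00975 by limma) and fell by 1.11 in Tet1 KO kidneys (adjusted p = 0.00106). Lrp2 and Cubn, the megalin and cubilin receptors that take up vitamin D with its carrier from the filtrate, fell as well, with log2 fold changes of -1.18 and -1.16 in WT (adjusted p = 0.0291 and 0.02) and of -2.14 and -1.92 in Tet1 KO kidneys (adjusted p = 0.00152 and 0.00136). Amn, which anchors cubilin in the membrane, was not called, at -0.27 in WT and -0.50 in Tet1 KO kidneys (adjusted p = 0.463 and 0.123). Gc, the carrier of vitamin D in blood, was at 0.21 and 0.48 and was not called in WT (adjusted p = 0.336) nor, for its size, in Tet1 KO kidneys (adjusted p = 0.0314).

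The calcium transport genes, several of which vitamin D controls, were all tested. In WT kidneys 5 of 8 were called lower, with none higher, where 8.45% of all genes were called lower. The 5 were Slc8a1, Trpv5, Casr, Calb1 and Atp2b4, the last of which was named after its value was seen. Slc8a1, the sodium-calcium exchanger, and Calb1, a calcium-binding protein of the distal tubule, fell, with log2 fold changes of -1.78 and -1.74 in WT (adjusted p = 0.00679 and 0.014 by limma) and of -2.37 and -2.95 in Tet1 KO kidneys (adjusted p = 0.000796 and 0.000857). Casr, the calcium-sensing receptor, fell by 1.39 in WT and fell by 2.64 in Tet1 KO kidneys (adjusted p = 0.011 and 0.000555). S100g, the small calcium carrier calbindin-D9k, was the most abundant at 1585 and 1826 FPKM in WT-NI, and its change of -0.59 in WT was not called (adjusted p = 0.253), while that of -1.85 in Tet1 KO kidneys was (adjusted p = 0.00492). Atp2b1, a calcium pump of the plasma membrane, was at -0.28 and -0.14 and was called in neither.

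Trpv5, the calcium entry channel of the distal tubule, did not share the order of groups of Slc8a1, Calb1 and Casr. It was 11.1 and 12.1 FPKM in WT-NI, 17.5 and 13.1 in KO-NI, 4.56 and 5.99 in WT-I/R 3D, and 10.5 and 10.2 in KO-I/R 3D. The WT-I/R 3D libraries were the lowest, and both KO-I/R 3D libraries lay above them. The log2 fold change of Trpv5 with injury was -1.14 in WT (adjusted p = 0.0106 by limma) and -0.55 in Tet1 KO kidneys (adjusted p = 0.0546). Its difference between the injured groups of 0.97 did not pass (SE 0.187, adjusted p = 0.0953). In Tet1 KO kidneys 5 of the 8 genes were called lower and 1 higher, where 19.4% and 17.9% of all genes were. The gene called higher was Trpv6, the related channel, at 1.12 (adjusted p = 0.0302 by limma), named after its value was seen.

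**Figure D4:**
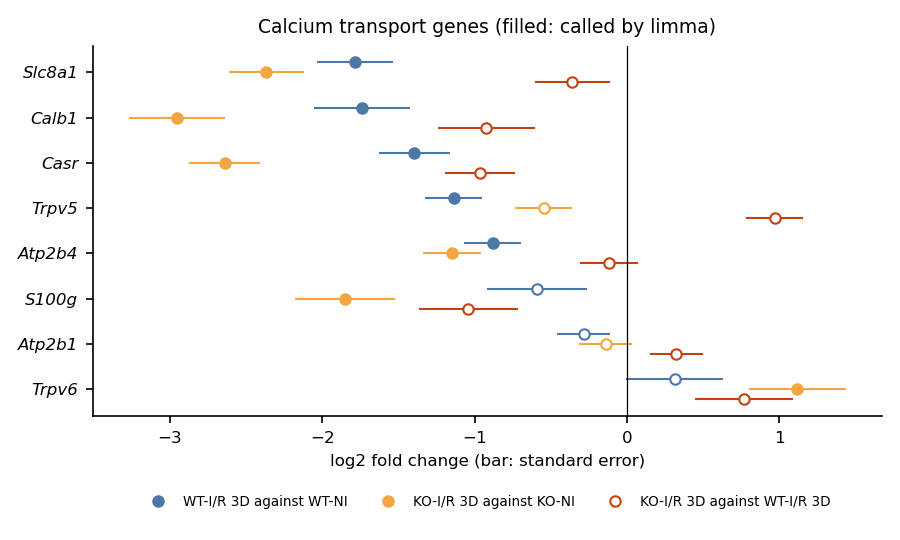
Log2 fold changes from limma (horizontal axis, bars for the standard error) of 8 calcium transport genes in 3 comparisons, with filled points for called differences. Slc8a1, Calb1, Casr and Atp2b4 are lower with injury in both genotypes, while Trpv5 lies at -1.14 in WT and 0.97 between the injured groups.

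Pth1r (ENSMUSG00000032492, chromosome 9), the receptor for parathyroid hormone, was 264 and 252 FPKM in WT-NI, 233 and 282 in KO-NI, 156 and 187 in WT-I/R 3D, and 127 and 124 in KO-I/R 3D. The non-injured groups overlapped, and each injured group lay below them, with KO-I/R 3D lowest. Pth1r fell by 0.59 on the log2 scale in WT (SE 0.15, adjusted p = 0.0373 by limma) and fell by 1.03 in Tet1 KO kidneys (SE 0.15, adjusted p = 0.00243). Between the injured groups the difference was -0.45 (95% interval -0.80 to -0.09, adjusted p = 0.215). Of the other genes of this receptor pathway 7 of 10 listed were tested, and 0 were called in WT and 1, lower, in Tet1 KO kidneys. The shares called lower over all genes were 8.45% and 19.4%. Ezr, an adaptor at the brush border, and Prkar1a, a regulator of protein kinase A, were at -0.25 and -0.09 in WT (adjusted p = 0.31 and 0.68), and Pth was at 0 in every library.

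Slc34a1 (ENSMUSG00000021490, chromosome 13), the main phosphate cotransporter of the proximal tubule, was 1468 and 1538 FPKM in WT-NI, 1077 and 1459 in KO-NI, 698 and 628 in WT-I/R 3D, and 405 and 289 in KO-I/R 3D. No groups overlapped, and every library kept the order of WT-NI highest, then KO-NI, then the injured WT and last the injured KO kidneys. Slc34a1 fell by 1.18 on the log2 scale in WT (SE 0.225, adjusted p = 0.0158 by limma) and fell by 1.87 in Tet1 KO kidneys (SE 0.225, adjusted p = 0.00121). Against injured WT kidneys it was -0.95 in KO-I/R 3D (95% interval -1.49 to -0.42), with an adjusted p of 0.123 by limma, of 0.0421 by voom on the recovered reads and of up to 0.575 over the alternatives.

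Slc34a3 (ENSMUSG00000006469, chromosome 2), the second cotransporter of the brush border, was 56.9 and 61.5 FPKM in WT-NI, 43.2 and 54.3 in KO-NI, 23.2 and 18.2 in WT-I/R 3D, and 12.5 and 8.88 in KO-I/R 3D. It had the same order of groups as Slc34a1, again with no overlap. It fell by 1.52 in WT (SE 0.211, adjusted p = 0.00679 by limma) and fell by 2.19 in Tet1 KO kidneys (SE 0.211, adjusted p = 0.000659). Against injured WT kidneys it was -0.96 in KO-I/R 3D (95% interval -1.46 to -0.46, adjusted p = 0.11 by limma, 0.0444 by voom and up to 0.572 over the alternatives). The ratio of Slc34a1 to Slc34a3 was 24.9 to 26.9 in the non-injured libraries and 30.1 to 34.6 in the injured ones, so that Slc34a3 was the lower of the pair relative to its non-injured level in all 4 injured libraries.

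Slc20a1 (ENSMUSG00000027397, chromosome 2), a cotransporter made in most cell types, had another order of groups. It was 8.23 and 8.54 FPKM in WT-NI, 7.87 and 7.55 in KO-NI, 9.17 and 9.31 in WT-I/R 3D, and 12.7 and 14.4 in KO-I/R 3D. The libraries of a group lay close together, and the KO-I/R 3D libraries were above all others. Slc20a1 overlaps Gm4430 (0.525 to 1.86 FPKM) and 9830144P21Rik (0.526 to 1.20 FPKM) on the opposite strand, and the use of strand in counting is not stated. The change with injury was 0.14 on the log2 scale in WT (SE 0.115, 95% interval -0.13 to 0.41, adjusted p = 0.447 by limma), and Slc20a1 rose by 0.81 in Tet1 KO kidneys (SE 0.115, adjusted p = 0.00222). The difference between these responses was 0.67 (95% interval 0.28 to 1.05, unadjusted p = 0.0047), with an adjusted p of 0.39 that did not pass. In KO-I/R 3D Slc20a1 was 0.55 higher than in injured WT kidneys (95% interval 0.27 to 0.82, adjusted p = 0.103 by limma, 0.0581 by voom and 0.0406 to 0.569 over the alternatives).

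Slc20a2 (ENSMUSG00000037656, chromosome 8), its close relative, was 11.5 and 11.0 FPKM in WT-NI, 9.99 and 12.2 in KO-NI, 7.30 and 7.88 in WT-I/R 3D, and 7.29 and 8.26 in KO-I/R 3D. The injured libraries lay below the non-injured ones and overlapped between the genotypes. Slc20a2 fell by 0.57 in WT (adjusted p = 0.0349 by limma), and its change in Tet1 KO kidneys was just past the fold needed for a call, at -0.50 (adjusted p = 0.0286). On the TPM scale the latter was -0.10 and was not called. Over the 16 alternatives the value in Tet1 KO kidneys ran from -0.64 to -0.10, and the call held in 6 of them. Slc20a2 overlaps Smim19 on the opposite strand (11.1 to 19.6 FPKM) and Gm17491 on its own strand (4.49 to 7.0 FPKM), so its level is uncertain.

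The 4 cotransporters among the members can be set side by side, without Slc34a2, which is described below. The sum of their levels was 1545 and 1619 FPKM in WT-NI, 1138 and 1532 in KO-NI, 738 and 664 in WT-I/R 3D, and 437 and 320.3 in KO-I/R 3D. Slc34a1 made up 94.6% to 95.2% of that sum in the non-injured libraries, 94.6% and 94.7% in WT-I/R 3D, within that range, and 92.6% and 90.2% in KO-I/R 3D. The share of Slc20a1 was 0.533% and 0.528% in WT-NI, 0.691% and 0.492% in KO-NI, 1.24% and 1.40% in WT-I/R 3D, and 2.91% and 4.49% in KO-I/R 3D. The ratio of Slc20a1 to Slc20a2 was 0.621 to 0.788 in the non-injured libraries, 1.26 and 1.18 in WT-I/R 3D, and 1.75 and 1.74 in KO-I/R 3D, so that Slc20a1 passed Slc20a2 in all 4 injured libraries. These shares and ratios are descriptions and were not tested.

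Of the other phosphate genes, 12 of 15 listed were tested. In WT 1 was called higher and 1 lower, and in Tet1 KO kidneys 2 higher and 7 lower. Calls over all genes were also more frequent in Tet1 KO kidneys, at 19.4% lower and 17.9% higher against 8.45% and 8.90% in WT, and the difference of the counts was not tested. Alpl, the phosphatase that frees phosphate from organic esters, fell by 1.03 in WT and fell by 1.09 in Tet1 KO kidneys (adjusted p = 0.00855 and 0.00214 by limma). Stc2, a secreted stanniocalcin, rose by 1.37 and by 2.31 (adjusted p = 0.0151 and 0.000926), from 1.18 and 0.924 FPKM in WT-NI. The other gene called higher in Tet1 KO kidneys was Slc34a2, a relative of Slc34a1 named after its value was seen. Slc34a2 rose by 1.99 there (adjusted p = 0.0161 by limma) and was not called in WT, at 1.66 (adjusted p = 0.055). It was 1.60 and 1.24 FPKM in WT-NI and 2.00 and 2.36 in KO-NI. After injury it was 3.14 and 6.88 in WT-I/R 3D and 5.75 and 13.7 in KO-I/R 3D. Slc9a3r1, the scaffold that holds Slc34a1 at the brush border, was at -0.26 and -0.48 and was not called (adjusted p = 0.418 and 0.101), and Slc17a1, a transporter of organic anions with sodium and phosphate, was at -0.56 in WT (adjusted p = 0.0869) and at -0.90 in Tet1 KO kidneys (adjusted p = 0.0102).

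The comparison of the injured groups asks whether the loss of Tet1 changed the levels after injury, and no member was called, where the background was 0% of the genes tested. Over all genes, 2654 had an unadjusted p under 0.05 in this comparison. By values alone, 6 members (Kl, Vdr, Slc34a1, Slc34a3, Pth1r and Fgfr1) were lower in each KO-I/R 3D library than in either WT-I/R 3D library, where 29.5% of all genes did so. Slc20a1 and Cyp27b1 were higher in each, where 28.0% of all genes did so. With voom on the recovered reads Slc34a1 and Slc34a3 were called, against 2.10% of genes called in either direction. The median over the members was -0.25, against 0.00 over all genes.

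The calls between the injured groups also moved with libraries of the other groups, which share the estimate of the spread. Slc34a1 and Slc20a1 were called without KO-NI replicate 1 (adjusted p = 0.048 and 0.0413 by limma), and Slc34a1, Slc20a1 and Slc34a3 without KO-NI replicate 2 (adjusted p = 0.0473, 0.0406 and 0.0494). In these fits 4.24% and 4.27% of all genes tested were called in either direction, where none was with all libraries. The fold changes in these fits were the same as with all libraries.

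Between the non-injured groups no member was called, and the background was again 0% of the genes tested, with 876 genes at an unadjusted p under 0.05. Cyp24a1, Slc34a1, Slc34a3, Slc20a1 and Fgfr1 had both KO-NI libraries below both WT-NI libraries, 5 of the 10 members, where 17.2% of all genes did. Apart from Cyp24a1, the log2 fold changes of the members lay between -0.29 and 0.32, and those of Kl and Pth1r were 0.07 and -0.01. The difference of the injury responses was called for no member either, with a background of 0% and 1567 genes at an unadjusted p under 0.05. It was -0.83 for Kl (95% interval -1.67 to 0.01, adjusted p = 0.501 by limma), -0.69 for Slc34a1 and -0.67 for Slc34a3. The injury comparison of Tet1 KO kidneys and that of WT kidneys had different counts of calls without a difference of the responses that passed.

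Markers of several cell types moved together with the members. The counts called stand against 8.45% of all genes lower and 8.90% higher in WT, and 19.4% and 17.9% in Tet1 KO kidneys. Relative to the WT-NI mean, the summed proximal tubule markers stood at 48.1% and 40.1% in WT-I/R 3D and at 28.5% and 19.0% in KO-I/R 3D, where Slc34a1 stood at 46.5% and 41.8% and at 26.9% and 19.2%. Of the 15 markers, 11 were called lower in WT and 14 in Tet1 KO kidneys, and 1 was called higher in each. Abundant genes weigh most in the sum, with Pck1, Miox and Fbp1 at 1713, 1507 and 859 of the 6474 FPKM in WT-NI replicate 1. The single markers ran from -2.24 for Pck1 to 2.40 for Slc7a13 on the log2 scale in WT, with a median of -1.37. In Tet1 KO kidneys they ran from -3.145 to 1.53 for the same genes, with a median of -1.93. The summed markers of the distal convoluted and connecting tubule stood at 71.2% and 58.9% in WT-I/R 3D and at 40.8% and 22.8% in KO-I/R 3D. These sums lay above the values of Kl in each injured library, but Klk1 held 1959 of their 2477 FPKM in WT-NI replicate 1. By log2 fold change the single markers ran from -0.43 to -1.41 in WT, all smaller falls than that of Kl. In Tet1 KO kidneys they ran from -1.18 to -3.2, and Pvalb alone fell more than Kl. Of these 8, 4 were called lower in WT and 8 in Tet1 KO kidneys.

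Other cell types rose in the same libraries. The summed macrophage and leukocyte markers were at 324% and 400.4% of the WT-NI mean in WT-I/R 3D and at 381% and 535% in KO-I/R 3D, with 12 of 12 called higher in WT and 11 in Tet1 KO kidneys. The fibroblast and pericyte markers were at 432% and 503% and at 546% and 675%, with 8 of 8 called higher in both genotypes. Loop of Henle markers were at 79.5% and 78.6% in WT-I/R 3D and at 51.2% and 39.6% in KO-I/R 3D, with 1 of 7 called lower in WT and 6 in Tet1 KO kidneys. Of 8 collecting duct, 7 endothelial and 6 podocyte markers tested, 4, 2 and 2 were called lower in WT and 5, 3 and 3 in Tet1 KO kidneys. The part of these shifts in the changes of the members, Slc20a1 included, was not tested.

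**Figure D5:**
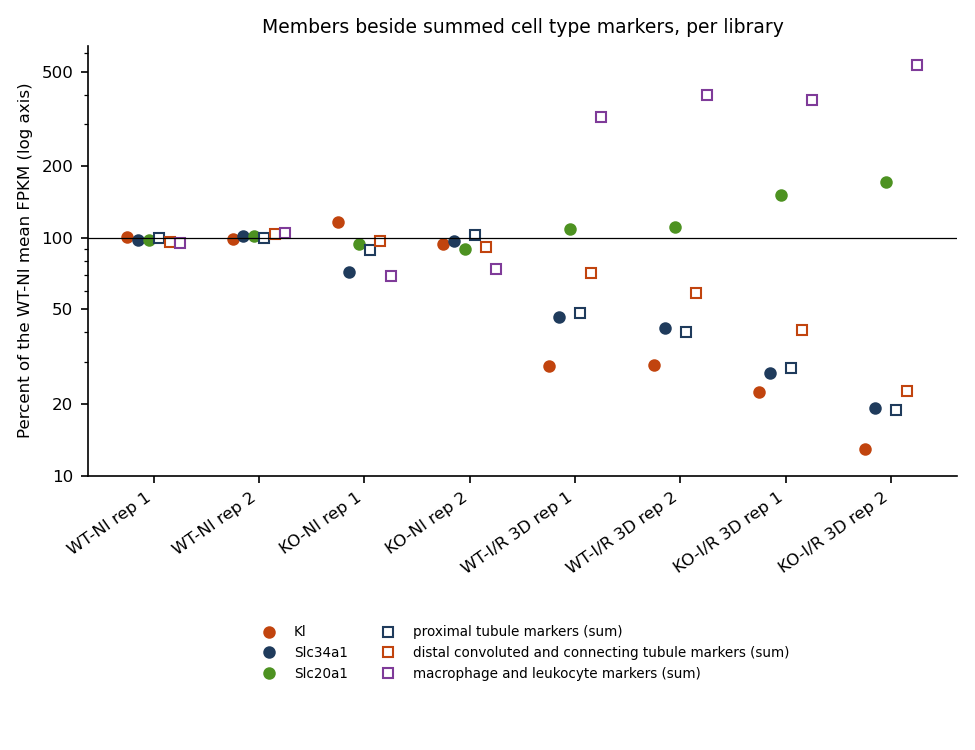
Level as percent of the WT-NI mean (vertical axis, log scale) in each of the 8 libraries (horizontal axis) for Kl, Slc34a1 and Slc20a1 (filled circles) and for the summed FPKM of 3 lists of cell type markers (open squares). In the injured libraries Slc34a1 lies beside the sum of the proximal tubule markers, at 19.2% and 19.0% in KO-I/R 3D replicate 2. Kl lies below that sum there, and Slc20a1 and the macrophage markers lie above 100%.

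The genes most like Kl and Slc34a1 over the 8 libraries were sought among 12610 protein-coding genes, by the root mean square difference of their log2 levels after each gene was centred on its own mean. For Kl they were Malrd1 (0.109), Cpeb3 (0.114), Slc6a19 (0.125), Casr (0.142) and Lpar3 (0.149). Slc6a19 is an amino acid transporter of the proximal tubule brush border and one of its markers here, and Casr is the calcium-sensing receptor described above. For Slc34a1 they were Pdk2 (0.036), Tcn2 (0.094), Bckdha (0.108), Slc5a10 (0.111) and Slc7a8 (0.112). Pdk2, a kinase that restrains pyruvate dehydrogenase, was 122.5 and 131 FPKM in WT-NI and 34.7 and 26.2 in KO-I/R 3D.

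Among the members themselves, Slc34a3 was nearest to Slc34a1 by the same measure (0.175), then Vdr (0.315), and Slc34a3 was also the member nearest to Kl (0.302). Slc20a1 and Cyp24a1 were the farthest from both, at 1.44 and 1.28 from Kl and at 1.15 and 1.01 from Slc34a1. The measure has no test, and all points share the same 8 libraries and the same injury contrast.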

How the data were processed

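The 10 members and the gene lists were chosen with earlier results of these data known. FPKM were deposited by the authors as 1 table covering the 8 libraries. HISAT2 2.0.5 and the assembly GRCm38.p6 are named in the processing notes of the submitters. The counting program and its use of strand are not given in the sources used here. Since only 2.88% of 52083 genes share a start with GRCm38, the positions listed in the table were not used for the start regions. They served only to find genes that overlap a member. Of 55923 lines, 55919 held genes and 4 were empty. Columns were matched to samples by title, and groups came from the labels. FPKM times gene length gave whole reads for 100% of the deposited values (tolerance 0.001), so reads were recovered.

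Values of log2(FPKM + 0.1) were fitted with limma 3.58.1 in R 4.3.3 (4 group means, eBayes with a variance trend, 4 residual and 2.89 prior degrees of freedom) over the genes that reached 1 FPKM in 2 or more libraries, with Benjamini-Hochberg adjustment over all of them in each of 5 comparisons, 2-sided. Fold changes on this scale understate those of low genes. The thresholds, an adjusted p of 0.05 and a log2 fold change of 0.5, are those the study states; its test is not stated. The method was tried on simulated reads with large changes in the WT injury comparison only, so smaller differences and the other comparisons were not covered. All 10 members are named; for each pathway list, up to 4 called genes with the smallest adjusted p in WT-I/R 3D against WT-NI and up to 2 uncalled genes with the highest mean; for Kl and Slc34a1, the 5 most alike genes. Others are named as such. 1 listed gene is not reported here. Alternatives were limma voom on recovered reads (10 or more in 2 or more libraries), TPM, each library left out, a replicate block, a pseudocount of 1, median-of-ratios scaling, leaving out the filter, the variance trend or the fold threshold, and fitting only the libraries of the comparison. The deposited levels already followed median-of-ratios size factors, so scaling by them again could change little. For Kl in WT it gave -1.788, against -1.787 in the main fit. Voom used size factors of the same kind, so only TPM changed the scaling between libraries.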

Additional observations from a re-analysis of the deposited data

Results flagged for a closer look

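The injury response of Cyp24a1, which breaks down active vitamin D, went in opposite directions in the 2 genotypes: both WT-I/R 3D libraries were below both WT-NI libraries, and both KO-I/R 3D libraries were above both KO-NI libraries. Neither change was called (adjusted p = 0.0821 in WT and 0.262 in Tet1 KO kidneys by limma). The share of all genes with such a pattern was not counted. The difference of the responses, KO minus WT, was 2.00 on the log2 scale, with an adjusted p of 0.411 by limma that did not pass and a range of 0.106 to 0.975 over the alternatives. The WT-NI libraries differed from each other, at 53.4 and 27.3 FPKM.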

How the results depend on the processing

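The members called in WT-I/R 3D against WT-NI were 6 and became 3 with no filter; with each library left out the number ran from 0 to 6. Between the injured groups no member was called, voom gave 2, and leaving out each library gave 0 to 3. With the replicate block 6 and 7 members were called in the injury comparisons and 0 in the others, as without it. The labels give no meaning to the replicate numbers, and the differences between replicates correlated at 0.027 to 0.173 between groups, so the numbers were not taken as pairs. Over all genes the block moved the calls from 1393 higher and 1322 lower to 1517 and 1483 in WT, and from 2808 and 3043 to 2934 and 3170 in Tet1 KO kidneys.

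TPM raised the median of all genes by 0.179 in WT, 0.395 in Tet1 KO kidneys and 0.132 between the injured groups, and the calls to 1811 higher and 717 lower in WT and to 5076 and 1580 in Tet1 KO kidneys. On that scale Fgfr1 turned to 0.22 with injury in Tet1 KO kidneys and to 0.053 between the injured groups, and Kl to -0.017 between the non-injured groups. Small values also turned when 1 library was left out. Slc20a2 ran from -0.056 to 0.122 between the injured groups, from -0.175 to 0.107 between the non-injured groups and from -0.073 to 0.208 in the difference of responses. Between the non-injured groups Kl ran from -0.085 to 0.225, Cyp27b1 from -0.142 to 0.772, and Pth1r from -0.149 to 0.126, and Cyp27b1 ran from -0.337 to 0.578 in the difference of responses. None of these was called, and the cause was not tested.

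Over all genes, leaving out a library of WT-NI or WT-I/R 3D gave 205 to 480 higher and 76 to 231 lower calls in WT kidneys, and leaving out KO-NI replicate 2 gave 776 higher and 1444 lower calls between the non-injured groups, where all libraries gave 0. Between the injured groups voom called 86 genes higher and 298 lower.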
